A study of Homo sapiens with 6 samples.

Results

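Sphingosine-1-phosphate (S1P) transport and signalling was examined as a group of 9 genes among the 23368 gene symbols counted in MDA-MB231 cells. The genes were taken by symbol for their role: the exporter SPNS2, the kinases SPHK1 and SPHK2, the lyase SGPL1, the phosphatase SGPP1 and the receptors S1PR1, S1PR2, S1PR3 and S1PR5. SPNS2 was also selected on its counts in these libraries, which fell strongly with both siRNAs, so its values in all 3 groups are described here without a test. All 9 genes passed the filter on low counts.

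MDA-MB231 is an established human line of triple-negative breast cancer. Cells of this line, kept in medium with 10% fetal calf serum, were transfected by a lipid reagent with siL1 or siL2, which are different siRNAs against the histone lysine demethylase LSD1, or with a control siRNA (siControl). Each group had 2 RNA-seq libraries, and the 2 libraries of a group carry the numbers 1 and 2. Whether these were grown as separate cultures is not in the labels, and the p-values speak only of the spread among these libraries, which may be technical.

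S1P is a signalling lipid made inside cells when a sphingosine kinase phosphorylates sphingosine, which itself comes from ceramide. SPNS2 carries S1P out of the cell, where it binds a small family of G-protein-coupled receptors that steer migration, cell shape and survival. Within the cell S1P is either turned back into sphingosine by a phosphatase or destroyed by the lyase, the exit from sphingolipid metabolism. In breast cancer cells S1P is known chiefly for its effects on migration and survival.

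The promoters of 3 receptors are shown as examples, S1PR2 and S1PR3, which rose with siL1, and S1PR5, which did not pass the test. S1PR1 also rose with siL1 and is not shown. The rise of S1PR2 was lost with DESeq2 (adjusted p = 0.109). Each line holds the 100 bases before a transcript start on the gene's own strand, from RefSeq on GRCh38.p14, and capitals mark the GC box GGGCGG or its complement CCGCCC, the motif bound by Sp1-type factors.
S1PR2, chr19:10231332-10231431, minus strand: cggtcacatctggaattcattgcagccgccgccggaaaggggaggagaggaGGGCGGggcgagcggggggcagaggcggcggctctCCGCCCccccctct
S1PR3, first start, chr9:88990763-88990862, plus strand: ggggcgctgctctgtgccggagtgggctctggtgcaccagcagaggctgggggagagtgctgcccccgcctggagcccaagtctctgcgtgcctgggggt
S1PR5, first start, chr19:10517966-10518065, minus strand: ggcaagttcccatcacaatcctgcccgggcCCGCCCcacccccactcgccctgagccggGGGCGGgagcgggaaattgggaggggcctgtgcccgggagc

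The promoter table held 12 starts for 7 of the 9 genes (SPHK1, SPHK2, SGPL1 and the 4 receptors). Over the 250 bases before each start and on both strands, 8 of the 12 starts held a GC box, against 42.6% of 35116 promoters. The E-box CAGGTG, the motif of SNAI factors, was in 1 of the 12 starts, an SPHK2 start, against 17.5% of promoters. AAGGTCA, the half-site of oestrogen-related receptors, was in 0 of the 12, against 3.44% of promoters. Of the receptors that rose with siL1, S1PR2 held a GC box, S1PR3 held several at its second start and 0 at the first start shown, and S1PR1 held 0; S1PR5, which did not pass the test, held the box at both starts. These letters describe the windows only.

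The libraries held between 22047738 and 26765079 counts, with 15624 to 16065 genes detected, and values are in CPM, a gene's count scaled to the total count of its library. A gene at 0 could still have up to 3 counts, or 0.112 to 0.136 CPM, by counting error alone. Reported log2 fold changes are from edgeR's quasi-likelihood fit over all 6 libraries, with p-values adjusted by Benjamini-Hochberg over 13322 genes and a threshold of 0.05. KDM1A, which encodes LSD1, measured 27.7 and 28.1 CPM in the siL1 libraries and 17.4 and 18.1 CPM in the siL2 libraries, against 158 and 165 CPM in siControl. Its log2 fold change was -2.53 with siL1 and -3.19 with siL2, and siL2 lay below siL1 by a log2 difference of -0.66 (edgeR adjusted p = 4.36e-06). Of the genes tested, 50.4% passed the threshold with siL1 (24.7% higher, 25.7% lower) and 45.8% with siL2 (22.6% higher, 23.3% lower). Between siL2 and siL1, 46.8% differed (23.2% higher in siL2, 23.7% lower). DESeq2, used as an alternative test, called fewer of the 13322 genes. It gave 2624 higher and 2604 lower with siL1, where edgeR gave 3289 and 3423. With siL2 it gave 2408 and 2329, where edgeR gave 3006 and 3100. In siL2 against siL1 it gave 2325 and 2396, where edgeR gave 3088 and 3152. The median log2 fold change of all tested genes was -0.014 with siL1, -0.0036 with siL2 and 0.00019 in siL2 against siL1. The line's mesenchymal markers were high (VIM 3291 to 3707 CPM, AXL 1473 to 1949 CPM), whereas the luminal markers ESR1, PGR, CDH1 and KRT19 had at most 4 counts in any library. The other 4 luminal markers on the list were detected, with ERBB2 at 46.6 to 59.8 CPM, EPCAM at 9.34 to 12.6 CPM, GATA3 at 2.54 to 5.40 CPM and FOXA1 at 2.19 to 5.53 CPM.

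SPNS2, the S1P exporter, was lower with both siRNAs and lowest with siL2. It had 45.7 and 41.1 CPM in the siL1 libraries, 21.4 and 18.0 CPM in the siL2 libraries, and 99.2 and 97.8 CPM in the siControl libraries. The 3 groups did not overlap. SPNS2 averaged 43.4 ± 3.21 CPM with siL1, 19.7 ± 2.37 CPM with siL2 and 98.5 ± 0.969 CPM in siControl (SD, n = 2 each), which puts siL1 at 44.2% and siL2 at 20.0% of siControl after scaling. In these bulk libraries fewer expressing cells and less RNA per cell cannot be told apart. The log2 fold change was -1.18 with siL1 and -2.32 with siL2. Of 13322 genes, 60 lay lower with siL1 and 6 with siL2. SPNS2 was chosen for its strong falls with both siRNAs, so this rank and the separation from siControl follow from that choice. In the authors' deposited table the linear fold change of SPNS2 over siControl was 0.444 with siL1 and 0.199 with siL2.

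Between siL2 and siL1 the log2 difference of SPNS2 was -1.14, which is given without a test because the same libraries served to choose the gene. In this comparison 253 of 13322 genes lay lower than SPNS2, and 46.8% of all genes differed in either direction. KDM1A was also lower in siL2 than in siL1, as given above, and a link between its level and that of SPNS2 was not tested. SPNS2 shares 139 exonic bases (3.38% of its exons in GENCODE v29) with MYBBP1A on the opposite strand, and the strand setting of the authors' counting is not given in the sources used here. MYBBP1A, which encodes a nucleolar protein, averaged 173 CPM with siL1, 148 CPM with siL2 and 203 CPM in siControl, and its part in the SPNS2 counts was not tested.

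**Figure D1:**
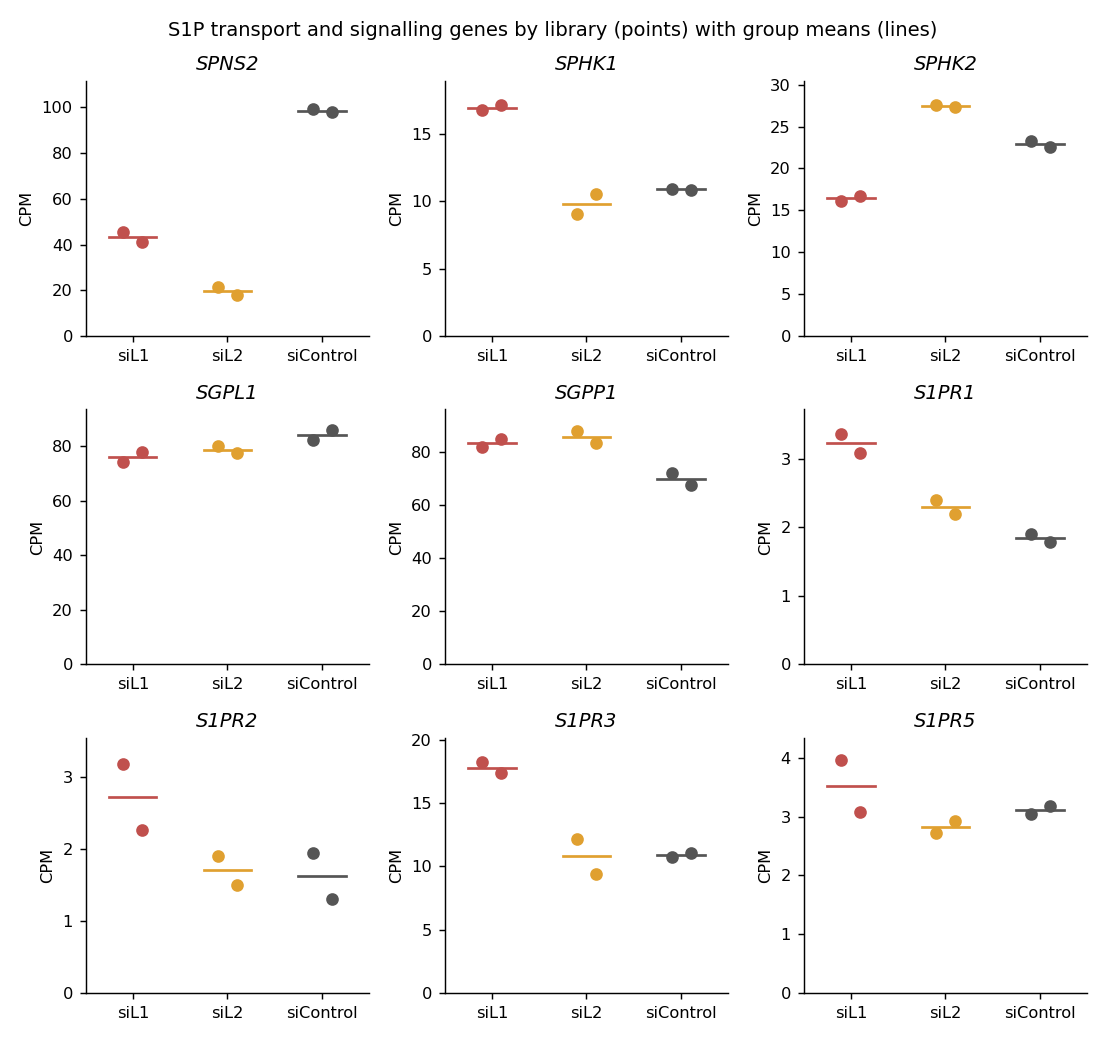
Level of each of the 9 S1P genes in CPM (vertical axis, linear, starting at 0, one scale per panel) in the siL1, siL2 and siControl libraries, with points for the 2 libraries of a group and lines for their mean. SPNS2 falls in 3 separate levels, from 18.0 CPM in a siL2 library to 99.2 CPM in a siControl library, while SPHK1 and S1PR3 are high in siL1 alone.

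SPNS2 belongs to the spinster family, whose other human members are SPNS1, a lysosomal phospholipid transporter, and SPNS3, which is less studied. SPNS1 had 36.7 and 45.4 CPM with siL1, 21.1 and 22.2 CPM with siL2, and 38.1 and 35.6 CPM in siControl. It fell with siL2 (log2 fold change -0.77, edgeR adjusted p = 3.32e-05) and its value with siL1 was 0.16 (edgeR adjusted p = 0.159). That siL1 value passed the threshold without siL1 replicate 1 (0.31, edgeR adjusted p = 0.00921) and changed sign without siL1 replicate 2 (-0.0081), so that 1 library decides it.

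SPNS3 moved in opposite directions with the 2 siRNAs. It had 2.08 and 2.64 CPM with siL1, 0.747 and 0.731 CPM with siL2, and 1.27 and 1.48 CPM in siControl. SPNS3 rose with siL1 (log2 fold change 0.78, edgeR adjusted p = 0.0128) and fell with siL2 (-0.90, edgeR adjusted p = 0.0215). Both calls against siControl were lost with DESeq2 (adjusted p = 0.125 and 0.121), and each was lost without some of the single libraries (edgeR adjusted p up to 0.120 with siL1 and up to 0.129 with siL2).

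Per kilobase of the longest coding transcript, SPNS2 was the most abundant spinster gene in siControl and SPNS1 with either siRNA. SPNS2 stood at 13.3 and 11.9 CPM per kb with siL1, 6.20 and 5.23 CPM per kb with siL2, and 28.8 and 28.4 CPM per kb in siControl. SPNS1 stood at 16.6 and 20.6, 9.56 and 10.1, and 17.3 and 16.1 CPM per kb in the same libraries. SPNS2 made up 43.0% and 35.4% of the family's summed CPM per kb with siL1, 38.5% and 33.4% with siL2, and 61.7% and 62.8% in siControl. The share was therefore similar in the siL1 and siL2 libraries, whose ranges overlapped, although the SPNS2 level was not.

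**Figure D2:**
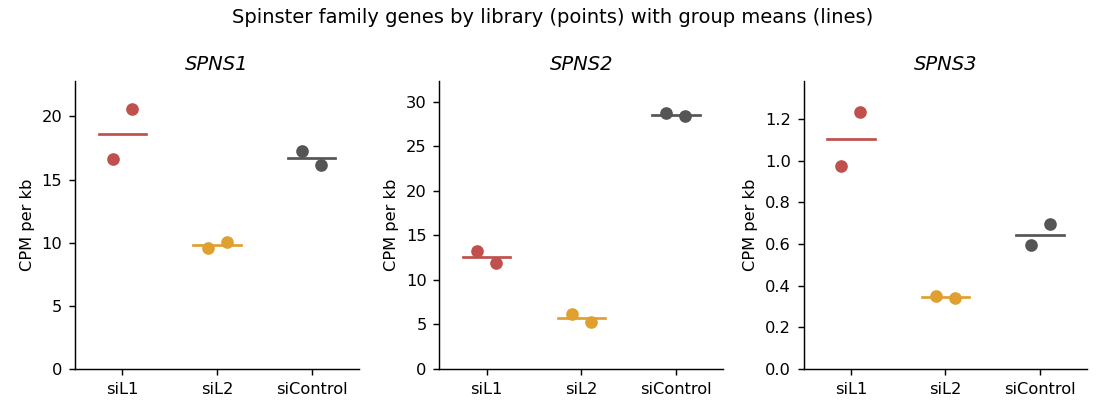
Level of SPNS1, SPNS2 and SPNS3 in CPM per kb of the longest coding transcript (vertical axis, linear, starting at 0, one scale per panel) in the siL1, siL2 and siControl libraries, with points for libraries and lines for group means. SPNS2 is lower than siControl with both siRNAs, SPNS1 with siL2, and SPNS3 lies above siControl with siL1 and below it with siL2.

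Of the 8 genes other than SPNS2, 5 rose, 2 fell and 1 did not pass the test with siL1, beside a background of 50.4% of all genes past the threshold (24.7% higher, 25.7% lower). With siL2, 2 rose, 0 fell and 6 did not pass, beside a background of 45.8%; edgeR at an unadjusted p below 0.05 and DESeq2 also gave 0 falls. The rises with siL2 numbered 1 with DESeq2, without siControl replicate 2 and without siL2 replicate 1. Their median log2 fold change was 0.45 with siL1 and 0.03 with siL2, against -0.014 and -0.0036 over all tested genes. The siL2 share, 2 of 8, was below the background. These comparisons share the siControl libraries.

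The sphingosine kinases, which make S1P, moved apart. SPHK1, the mainly cytosolic enzyme that can move to the plasma membrane, had 16.8 and 17.1 CPM with siL1, 9.08 and 10.6 CPM with siL2, and 10.9 and 10.8 CPM in siControl. The siL1 libraries were above all others. SPHK1 rose with siL1 by 0.64 on the log2 scale (SE 0.101, edgeR adjusted p = 0.00017). With siL2 its value was -0.16 (edgeR adjusted p = 0.260, 95% interval -0.39 to 0.08).

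SPHK2, the isoform found largely in the nucleus and mitochondria, went the other way. It had 16.2 and 16.8 CPM with siL1, 27.6 and 27.4 CPM with siL2, and 23.3 and 22.6 CPM in siControl. The 3 groups did not overlap. SPHK2 fell with siL1 (log2 fold change -0.47, SE 0.0773, edgeR adjusted p = 0.000237) and rose with siL2 (0.26, SE 0.0723, edgeR adjusted p = 0.0107). The rise with siL2 missed the threshold with DESeq2 (adjusted p = 0.0543), without siControl replicate 2 (edgeR adjusted p = 0.0716) and without siL2 replicate 1 (edgeR adjusted p = 0.0505), while the authors' deposited table gave an adjusted p of 0.0486.

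Between the siRNAs, both kinases differed. SPHK1 was lower in siL2 than in siL1 (log2 difference -0.80, edgeR adjusted p = 3.41e-05) and SPHK2 was higher in siL2 (0.73, edgeR adjusted p = 6.23e-06). Of the counts of both kinases, SPHK1 took 50.9% and 50.5% with siL1, 24.7% and 27.8% with siL2, and 31.9% and 32.4% in siControl. The 95% Wilson intervals, which cover counting error only, ran between 47.2% and 54.4% in the siL1 libraries, between 22.1% and 30.8% in the siL2 libraries and between 28.7% and 35.8% in the siControl libraries. The siL1 intervals thus lay apart from all others, whereas those of siL2 and siControl met in part. The summed CPM per kb of both kinases moved little, at 12.7 and 13.1 with siL1, 13.0 and 13.6 with siL2, and 12.4 and 12.2 in siControl.

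SPHK1 shares 59 exonic bases with PRPSAP1 on the opposite strand, and SPHK2 shares 678 with the antisense gene AC022154.1, which is not among the counted symbols, 661 with DBP and 246 with RPL18, all on the opposite strand. PRPSAP1, a regulator of phosphoribosyl pyrophosphate synthesis, averaged 58.1 CPM with siL1, 43.5 CPM with siL2 and 75.4 CPM in siControl. RPL18, a ribosomal protein gene, averaged 466, 434 and 477 CPM in the same groups, and DBP, a circadian transcription factor gene, averaged 2.63, 2.79 and 1.42 CPM. Their part in the kinase counts was not tested.

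**Figure D3:**
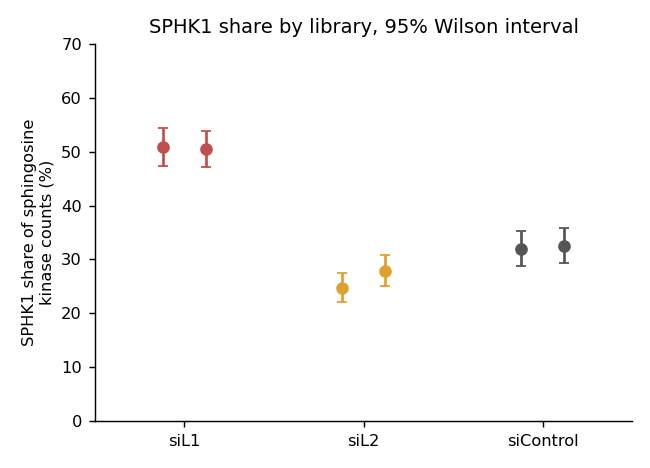
SPHK1 counts as a percentage of SPHK1 and SPHK2 counts together (vertical axis, linear, starting at 0) in each siL1, siL2 and siControl library, with 95% Wilson intervals as bars. The siL1 libraries sit at 50.9% and 50.5%, above the siL2 libraries at 24.7% and 27.8% and the siControl libraries at 31.9% and 32.4%.

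The enzymes that remove S1P inside the cell changed little in size. SGPP1, the endoplasmic reticulum phosphatase that returns S1P to sphingosine, had 81.8 and 84.7 CPM with siL1, 87.7 and 83.3 CPM with siL2, and 71.9 and 67.4 CPM in siControl. All 4 siRNA libraries were above both siControl libraries. SGPP1 rose with siL1 (log2 fold change 0.26, SE 0.0532, edgeR adjusted p = 0.00122) and with siL2 (0.29, SE 0.0529, edgeR adjusted p = 0.000584). It was the only one of the 8 genes called in the same direction with both. The share of all tested genes so called was not computed, and both comparisons share the siControl libraries, so this count has no background. Between siL2 and siL1 the difference of SGPP1 was 0.03 (95% interval -0.08 to 0.14, edgeR adjusted p = 0.653).

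SGPL1, the lyase that cleaves S1P irreversibly, had 74.4 and 78.1 CPM with siL1, 80.0 and 77.6 CPM with siL2, and 82.2 and 86.1 CPM in siControl. Both siRNA groups lay below siControl without overlap. SGPL1 fell with siL1 (log2 fold change -0.14, SE 0.0509, edgeR adjusted p = 0.0389), whereas its value with siL2 was -0.10 (edgeR adjusted p = 0.129). The siL1 call was lost with upper quartile scaling (edgeR adjusted p = 0.0796), with DESeq2 (adjusted p = 0.147), in a fit of those groups alone (edgeR adjusted p = 0.0638), and without siControl replicate 2 or siL1 replicate 1 (edgeR adjusted p = 0.202 and 0.225), and the authors' deposited table gave 0.175. Between siL2 and siL1 the difference was 0.04 (95% interval -0.07 to 0.15, edgeR adjusted p = 0.567). SGPP2, the other S1P phosphatase, had 2 to 9 counts in each library and was not tested.

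Of the 4 receptors, 3 rose with siL1 (2 with DESeq2), beside 24.7% of all genes higher. With siL2, 0 passed edgeR's test, beside 45.8% of all genes, and edgeR at an unadjusted p below 0.05 and DESeq2 also gave 0. S1PR3, which couples to several G-protein classes, had 18.2 and 17.4 CPM with siL1, 12.1 and 9.42 CPM with siL2, and 10.7 and 11.05 CPM in siControl. The siL1 libraries stood above the rest and the siL2 libraries lay on either side of siControl. S1PR3 rose with siL1 by 0.71 on the log2 scale (SE 0.114, edgeR adjusted p = 0.000202), and its value with siL2 was -0.01 (95% interval -0.27 to 0.25, edgeR adjusted p = 0.941). In siL2 it was lower than in siL1 by a log2 difference of -0.73 (edgeR adjusted p = 0.00018).

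S1PR1, a receptor coupled to inhibitory G proteins and best known from lymphocytes and endothelium, was low. It had 3.36 and 3.08 CPM with siL1, 2.39 and 2.19 CPM with siL2, and 1.90 and 1.78 CPM in siControl, from 42 to 79 counts a library. The 3 groups did not overlap. S1PR1 rose with siL1 (log2 fold change 0.81, SE 0.189, edgeR adjusted p = 0.0031), and its value with siL2 was 0.31 (95% interval -0.12 to 0.74, edgeR adjusted p = 0.219). The difference between siL2 and siL1 was -0.50 (edgeR adjusted p = 0.0348). It missed the threshold with DESeq2 (adjusted p = 0.234) and without siL1 replicate 1, siL1 replicate 2, siL2 replicate 1 or siL2 replicate 2 (edgeR adjusted p = 0.152, 0.0738, 0.0825 and 0.156).

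Markers of other cell types that also carry S1P receptors moved in part with the S1PR1 difference. The summed CPM of 10 endothelial markers was 373 to 377 with siL1, 356 in both siL2 libraries and 315 to 316 in siControl, nearly all of it from TIE1 (190 to 229 CPM) and ESAM (122 to 150 CPM). The endothelial genes PECAM1, CDH5 and VWF stayed at or below 1.01 CPM, and ERG had 0 counts throughout. KDR, on the same list, had 1.02 to 2.88 CPM. It rose by 1.31 with siL1 and 0.64 with siL2 (edgeR adjusted p = 0.000296 and 0.0411). Of the 5 tested endothelial markers, 4 were higher with siL1 and 3 with siL2, beside 24.7% and 22.6% of all genes. The 8 fibroblast markers summed to 18.8 to 20.0 CPM with siL1, 11.8 to 13.2 CPM with siL2 and 6.18 to 7.44 CPM in siControl, from COL1A1 and PDGFRB, with DCN, LUM and COL1A2 at 0 in all libraries. Of 12 blood markers, CD68 alone was above 1.14 CPM, and 5 were at 0 throughout. CD68 did not follow the order of S1PR1. It had 223 and 206 CPM with siL1, 268 and 272 CPM with siL2, and 213 and 223 CPM in siControl. The part of all these markers in the receptor results was not tested.

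S1PR2, a receptor that usually restrains migration, had 3.19 and 2.27 CPM with siL1, 1.91 and 1.502 CPM with siL2, and 1.95 and 1.31 CPM in siControl. In each group replicate 1 was the higher. S1PR2 rose with siL1 (log2 fold change 0.75, SE 0.254, edgeR adjusted p = 0.0257), and its value with siL2 was 0.07 (95% interval -0.52 to 0.67, edgeR adjusted p = 0.855). The rise with siL1 was lost with DESeq2 (adjusted p = 0.109), and without siControl replicate 2 it was 0.48 (edgeR adjusted p = 0.218) and without siL1 replicate 1 it was 0.49 (edgeR adjusted p = 0.216). The authors' deposited table gave an adjusted p of 0.128. Between siL2 and siL1 the difference was -0.68 (edgeR adjusted p = 0.0373). It was lost with DESeq2 (adjusted p = 0.152), and was -0.42 without siL1 replicate 1 (edgeR adjusted p = 0.289) and -0.52 without siL2 replicate 2 (edgeR adjusted p = 0.174). S1PR2 shares 83 exonic bases on the same strand with DNMT1, the maintenance DNA methyltransferase gene, which averaged 380 CPM with siL1, 411 CPM with siL2 and 397 CPM in siControl.

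S1PR5, known from natural killer cells and oligodendrocytes, had 3.96 and 3.08 CPM with siL1, 2.73 and 2.92 CPM with siL2, and 3.04 and 3.17 CPM in siControl. It passed the test in no comparison, with 0.18 for siL1 (95% interval -0.21 to 0.57, edgeR adjusted p = 0.427), -0.14 for siL2 (-0.54 to 0.25, edgeR adjusted p = 0.557) and -0.32 for siL2 against siL1 (-0.71 to 0.06, edgeR adjusted p = 0.156). These intervals still allow a log2 difference of up to 0.57 in size against siControl. S1PR4, the lymphoid receptor of the family, had 0 to 4 counts in a library and was not tested.

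**Figure D4:**
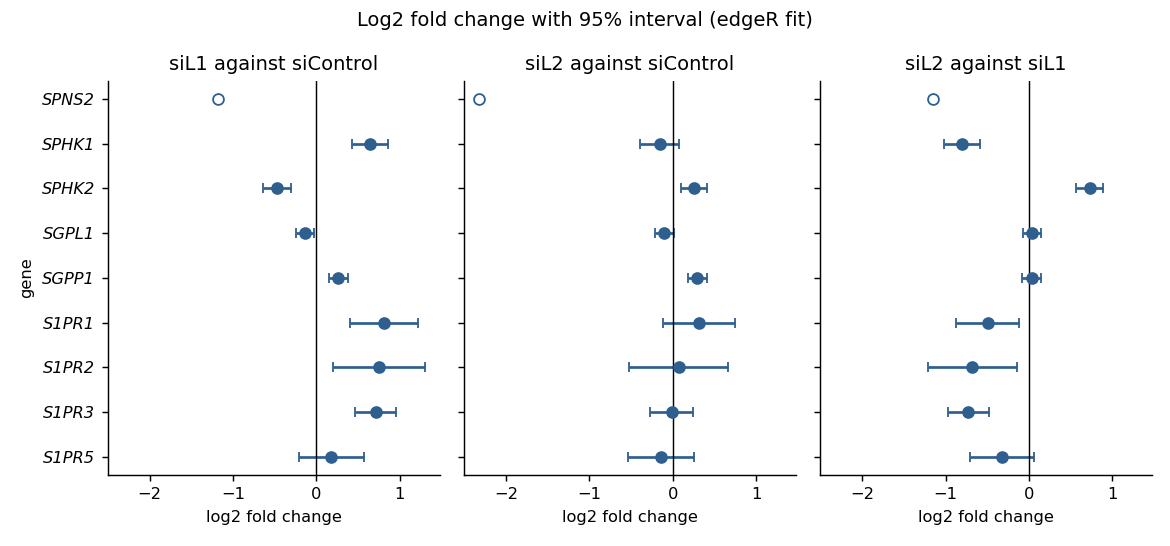
Log2 fold change (horizontal axis) of each of the 9 S1P genes for siL1 against siControl, siL2 against siControl and siL2 against siL1, from the edgeR fit, with 95% intervals as bars. SPNS2 is drawn as an open point without an interval, at -1.18, -2.32 and -1.14; SPHK1, S1PR1, S1PR2 and S1PR3 lie above 0 with siL1 and below 0 in siL2 against siL1.

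Set per kilobase of the longest coding transcript, the order of the 9 genes changed at its top. In siControl the mean level ran from SPNS2 (28.6 CPM per kb) through SGPP1 (21.0), SGPL1 (14.6), SPHK2 (7.44) and SPHK1 (4.86) to S1PR5 (1.33), S1PR3 (1.28), S1PR1 (0.633) and S1PR2 (0.448). With siL1, SGPP1 led at 25.1 CPM per kb, and SGPL1 at 13.3 and SPNS2 at 12.6 were neighbours whose libraries overlapped. With siL2, SGPP1 at 25.8 and SGPL1 at 13.7 CPM per kb came first, followed by SPHK2 at 8.91 and SPNS2 at 5.71. SPNS2 was thus in first place in siControl, level with SGPL1 for second place with siL1, and in the fourth place with siL2. These places restate the falls for which SPNS2 was chosen.

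On this scale SPHK1 was above SPHK2 in siL1 alone (7.57 and 5.34 CPM per kb, against 4.39 and 8.91 in siL2 and 4.86 and 7.44 in siControl). That order rests on the transcripts taken, since coding transcripts of SPHK2 run from 3085 bases to 2136 and less, and the raw counts of both kinases were close to equal in siL1. The receptors were the lowest genes in every group. S1PR3 and S1PR5 overlapped in siL2 and in siControl, and their order rests on the transcript, since coding transcripts of S1PR3 run to 8505, 4894 or 4206 bases. S1PR3 took 58.7% to 67.3% of the counts of the 4 receptors in all 6 libraries, before any scaling by length.

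Between siL2 and siL1, 1 of the 8 genes other than SPNS2 was higher and 4 were lower in siL2, beside a background of 46.8% of all genes (23.2% higher, 23.7% lower). DESeq2 called 1 higher and 2 lower. The lower ones by edgeR were SPHK1, S1PR1, S1PR2 and S1PR3, and the higher one was SPHK2. The 3 that did not pass were SGPL1, SGPP1 and S1PR5.

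The genes whose profile over the 6 libraries was nearest to SPNS2, by Euclidean distance between centred log2 CPM values, were RGS16 (distance 0.44), RAB39A (0.49), ISOC1 (0.61), FZD5 (0.66) and RBBP9 (0.74). RGS16, a GTPase-activating protein for G-protein alpha subunits, had 1.06 and 0.852 CPM with siL1, 0.486 and 0.244 CPM with siL2, and 2.04 and 2.24 CPM in siControl. FZD5, a Wnt receptor, had 8.55 and 8.24 CPM with siL1, 5.23 and 5.32 CPM with siL2, and 18.5 and 17.2 CPM in siControl. Nearest to S1PR3 were IGDCC4 (0.10), the retinoic acid receptor gene RARG (0.17), DPY19L1 (0.18), the chloride channel gene CLCN2 (0.19) and the kinase gene BMP2K (0.19). RARG had 29.5 and 27.1 CPM with siL1, 18.3 and 15.9 CPM with siL2, and 18.6 and 17.8 CPM in siControl. All of these points share their libraries, and likeness of profile is a description only.

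Around the 9 genes, 82 further genes of sphingolipid metabolism, S1P carriage, receptor coupling and the related lysophosphatidic acid (LPA) system were listed, of which 68 were tested. With siL1, 30 rose and 8 fell (55.9%, beside 50.4% of all genes), and with siL2, 30 rose and 16 fell (67.6%, beside 45.8%). The median log2 fold change was 0.16 with siL1 and 0.11 with siL2.

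Upstream of S1P, 7 of 14 tested genes of sphingoid base and ceramide synthesis rose and 0 fell with siL1, beside 24.7% of all genes higher and 25.7% lower, and DESeq2 called 5 rises and 0 falls. At an unadjusted p below 0.05 edgeR also gave 0 falls. With siL2, 7 rose and 1 fell by both tools, beside 22.6% higher and 23.3% lower. SPTLC2, a subunit of serine palmitoyltransferase, which starts the pathway, rose by 0.61 with siL1 and 0.59 with siL2 (edgeR adjusted p = 8.47e-05 and 0.000126). DEGS1, the desaturase that makes ceramide, rose by 0.33 and 0.35, and ORMDL2, an inhibitor of serine palmitoyltransferase, by 0.41 and 0.85, all past the threshold. The gene that fell with siL2 was CERS6, a ceramide synthase, named after its values were seen. CERS6 had 69.0 and 66.8 CPM with siL1, 43.9 and 45.1 CPM with siL2, and 61.6 and 59.8 CPM in siControl. It fell with siL2 (log2 fold change -0.45, edgeR adjusted p = 2.04e-05) and rose with siL1 (0.17, edgeR adjusted p = 0.0179), and the rise was lost with DESeq2 (adjusted p = 0.0589) and without siControl replicate 2 or siL1 replicate 1 (edgeR adjusted p = 0.118 and 0.0985).

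Among 10 ceramidases, sphingomyelinases and related hydrolases, 4 rose and 3 fell with siL1, and 3 rose and 3 fell with siL2, beside 50.4% of all genes called with siL1 and 45.8% with siL2. DESeq2 called 3 rises and 2 falls with siL1, and 3 rises and 1 fall with siL2. ACER3, an alkaline ceramidase that releases sphingosine, had 69.9 and 70.2 CPM with siL1, 47.5 and 44.3 CPM with siL2, and 56.9 and 55.0 CPM in siControl. It rose by 0.33 with siL1 (edgeR adjusted p = 0.000276) and fell with siL2 (log2 fold change -0.29, edgeR adjusted p = 0.00101). GALC, the lysosomal galactosylceramidase, rose by 0.36 and 0.39 (edgeR adjusted p = 0.000403 and 0.000208).

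Of 9 genes for enzymes that draw on ceramide and for ceramide transport, 6 rose and 0 fell with siL1, beside 24.7% of all genes higher and 25.7% lower, and 7 rose and 1 fell with siL2, beside 22.6% and 23.3%. DESeq2 gave the same counts, and edgeR at an unadjusted p below 0.05 also gave 0 falls with siL1. SGMS2, a sphingomyelin synthase, had 58.2 and 62.8 CPM with siL1, 48.4 and 47.3 CPM with siL2, and 29.9 and 26.7 CPM in siControl, a rise of 1.10 and 0.76 (edgeR adjusted p = 7.92e-08 and 2.69e-06). CERK, the ceramide kinase, rose by 0.83 and 0.41 (edgeR adjusted p = 5.81e-09 and 2.85e-06). The gene that fell with siL2 was COL4A3BP, the ceramide transfer protein, named after its value was seen.

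Of 8 tested carriers, other exporters and phosphate-removing enzymes, 1 rose and 1 fell with siL1, and 1 rose and 4 fell with siL2, beside 50.4% of all genes called with siL1 and 45.8% with siL2. DESeq2 called 1 rise and 1 fall with siL1, and 1 rise and 2 falls with siL2. The falls by edgeR with siL2 were the transporters MFSD2A, ABCC1 and ABCG2, named after their values were seen, and ABCA1, the cholesterol exporter. ABCA1 had a log2 fold change of -0.72 with siL2 (edgeR adjusted p = 0.0357), which was -0.30 without siControl replicate 2 (edgeR adjusted p = 0.437) and -0.47 without siL2 replicate 1 (edgeR adjusted p = 0.200), and it missed the threshold with DESeq2 (adjusted p = 0.0679). ALDH3A2, the aldehyde dehydrogenase that acts on a product of the lyase, had 172 and 160 CPM with siL1, 215 and 218 CPM with siL2, and 199 and 191 CPM in siControl. It fell with siL1 (-0.23, edgeR adjusted p = 0.000751) and rose with siL2 (0.15, edgeR adjusted p = 0.0132), and the rise was lost without siControl replicate 2 or siL2 replicate 2 (edgeR adjusted p = 0.105 and 0.0677).

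Downstream of the receptors, 8 of 22 G-protein and effector genes rose and 4 fell with siL1, and 9 rose and 5 fell with siL2. Of all genes, 50.4% were called with siL1 and 45.8% with siL2. GNA13, a G-protein alpha subunit gene, had 192.3 and 197.0 CPM with siL1, 146.6 and 149.4 CPM with siL2, and 112.5 and 121.1 CPM in siControl, a rise of 0.74 and 0.34 (edgeR adjusted p = 5.66e-08 and 6.04e-05). The phospholipase gene PLCB2 rose by 0.62 and 0.66 (edgeR adjusted p = 0.000596 and 0.000388). All 3 tested genes of the LPA system rose with both siRNAs by edgeR, and 2 with siL1 and 1 with siL2 by DESeq2. LPAR1, an LPA receptor, rose by 0.59 and 0.45 (edgeR adjusted p = 9.67e-05 and 0.000906). LPAR2, another LPA receptor, and ENPP2, which encodes the LPA-producing enzyme autotaxin, stayed at or below 1.62 CPM. ENPP2 rose by 1.54 with siL1 (edgeR adjusted p = 0.014), which was lost with DESeq2 (adjusted p = 0.0989) and without siControl replicate 1, siControl replicate 2 or siL1 replicate 1 (edgeR adjusted p = 0.0746, 0.0638 and 0.112). The calls of LPAR2 and ENPP2 with siL2 (1.01 and 1.303, edgeR adjusted p = 0.0479 and 0.0380) were lost with DESeq2 (adjusted p = 0.163 and 0.184). The LPAR2 value was 0.47 without siL2 replicate 1 (edgeR adjusted p = 0.477).

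**Figure D5:**
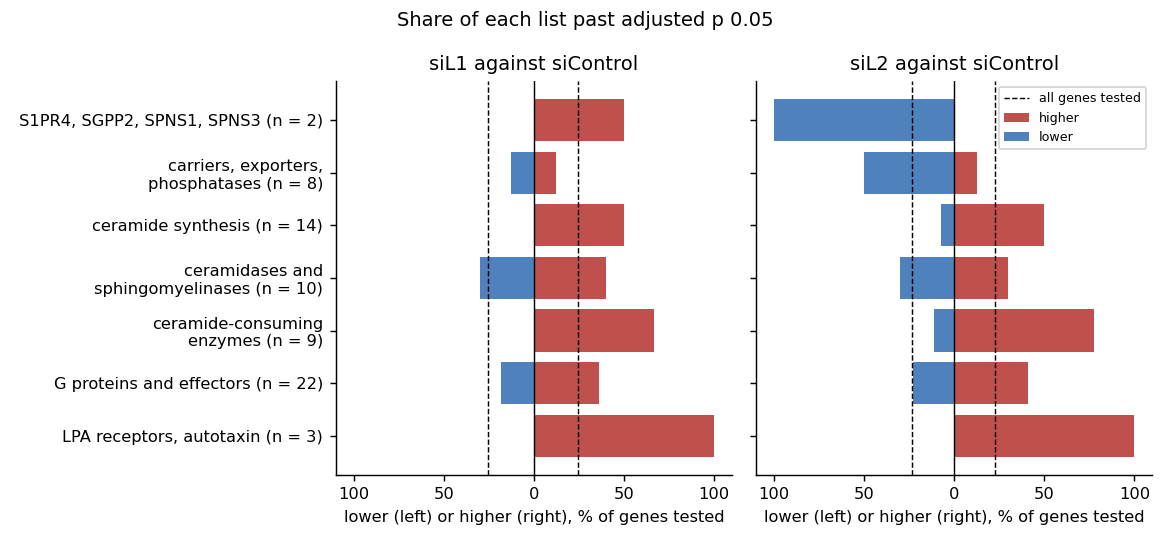
Share of the tested genes of each list past an adjusted p of 0.05 (horizontal axis, percent, higher to the right and lower to the left of 0) for siL1 against siControl and siL2 against siControl, with dashed lines at the share of all genes tested. The ceramide-consuming enzymes and the LPA genes (3 tested) reach farthest to the right with both siRNAs. With siL2 the row of S1PR4, SGPP2, SPNS1 and SPNS3 (2 tested) reaches farthest to the left, followed by the carriers.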

How the data were processed

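The authors' deposited table held raw counts per gene symbol of the 6 libraries, each group's fold change as a linear ratio over siControl, and an adjusted p-value. Per the submitters' processing notes it was made with TopHat 1.3.3 on hg19, HTSeq and DESeq; settings, strand and annotation release are not given in the sources used here.

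The 9 genes, the other gene lists and the tests were chosen with earlier results of these data known. From the counts, R 4.3.3 with edgeR 4.0.16 kept 13322 genes by filterByExpr (10046 left out, 5745 of them at 0 in all libraries), scaled by TMM and fitted glmQLFit on group alone over all 6 libraries (3 residual degrees of freedom, common biological coefficient of variation 3.72%). Each glmQLFTest was two-sided, with Benjamini-Hochberg adjustment over all genes tested. The fit was run on simulated counts with log2 changes of -1, -0.5, 0.5 and 1 planted in 50 genes each and equal means otherwise. It recovered 40 to 49 of each 50. Far fewer genes changed there than here, so the simulation does not check the scaling or the error rate in these data. CPM divides by the column total, before TMM, and SDs are over 2 libraries. Replicates differed by more than sampling noise. Named genes outside the 9 were up to 4 per list with the smallest larger p over both comparisons with siControl, every untested S1P family gene, the 5 nearest profiles to SPNS2 and to S1PR3, and the most abundant markers. Transcript lengths and exon overlaps came from GENCODE v29 on GRCh38 by symbol. Alternatives were DESeq2 size factors, upper quartile scaling, no filter or 1 CPM in 2 libraries, DESeq2 1.42.0, limma-voom (limma 3.58.1), the replicate number as a block, only the groups compared, and leaving out each library. Python 3.11.15 with pandas 2.3.3, scipy 1.17.1 and matplotlib 3.10.9 made tables and figures.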

Additional observations from a re-analysis of the deposited data

Results flagged for a closer look

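Opposite changes with the 2 siRNAs, each past the threshold and with the difference between siRNAs itself tested, were seen for 5 genes among the 9 and the 68 other tested pathway genes. The share of all tested genes that meet the same rule was not computed, so the 5 cannot be set against a background. Of all genes, 50.4% were called with siL1, 45.8% with siL2 and 46.8% between the siRNAs. SPHK2 was higher in siL2 than in siL1 by 0.73 on the log2 scale (edgeR adjusted p = 6.23e-06), having risen with siL2 and fallen with siL1. SPNS3 differed the other way (-1.68, edgeR adjusted p = 0.000159). ALDH3A2 was higher in siL2 by 0.37 (edgeR adjusted p = 1.6e-05), and ACER3 (-0.62, edgeR adjusted p = 1.93e-06) and CERS6 (-0.62, edgeR adjusted p = 1.35e-06) were lower. Against siControl, the SPNS3 calls with siL1 and siL2 were lost with DESeq2 (adjusted p = 0.125 and 0.121). The same held for SPHK2 with siL2 and CERS6 with siL1 (DESeq2 adjusted p = 0.0543 and 0.0589). In each of the 5 genes the siL1 and siL2 libraries did not overlap, which largely follows from choosing them by the test between the siRNAs.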

How the results depend on the processing

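Of the 378 recomputed values of single genes among the 9, 350 counted as unchanged, 19 lost a call, 1 gained one and 8 changed sign. Unchanged values kept their direction and their side of the threshold. The SPNS2 values against siControl had no test, and counted as unchanged when they moved by no more than the spread of the replicates. For KDM1A, CERS6 and the other named pathway genes together the numbers were 743, 41, 9 and 3. Most of these genes were named for small p-values, and the remaining pathway genes were not recomputed one by one. The count of called genes among the 8 other than SPNS2 with siL2 was 1 instead of 2 with DESeq2, and 1 to 2 when single libraries were left out, being 1 without siControl replicate 2 and without siL2 replicate 1. With siL1 that count was 5 instead of 7 with DESeq2, and 6 with upper quartile scaling or with only the 2 groups compared. The SPNS2 value ranged over single libraries left out from -1.25 to -1.11 with siL1, from -2.45 to -2.21 with siL2 and from -1.27 to -1.03 in siL2 against siL1.

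Values that changed sign all lay near 0 or had missed the threshold. S1PR3 with siL2 was 0.0066 with upper quartile scaling, and -0.21 to 0.15 over single libraries left out. Over the same, S1PR2 with siL2 ran from -0.20 to 0.38, S1PR5 with siL1 from -0.0038 to 0.34, SPNS1 with siL1 from -0.0081 to 0.31, ABCA1 with siL1 from -0.71 to 0.032 and PPAP2C with siL2 from -0.034 to 0.16. In siL2 against siL1, SGPL1 ran from -0.00057 to 0.081 and SGPP1 from -0.0011 to 0.066. The causes were not tested.

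Libraries of the same number deviated together only weakly (r = 0.141 for siL1 and siControl, 0.198 for siL2 and siControl, 0.133 for siL2 and siL1), and with 2 numbers they are taken to share a number only. With the replicate number as a block, 8036 genes were called with siL1, 7610 with siL2 and 7700 between the siRNAs. Of the 8 genes other than SPNS2, 7 were called with siL1 and 3 with siL2. SPNS2 was -1.18 with siL1, -2.33 with siL2 and -1.15 between the siRNAs. The added member was SGPL1 with siL2 (edgeR adjusted p = 0.0382 with the block). Among the named pathway genes the block added SPNS1 and ABCA1 with siL1 (0.16 and -0.38, edgeR adjusted p = 0.0128 and 0.026) and PPAP2A with siL2 (0.32, edgeR adjusted p = 0.0057). S1PR1, S1PR2 and S1PR5 had 31 to 93 counts a library, the fewest of the members.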
